A study of Mus musculus with 24 samples.

Results

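Within the stage of day 3 of involution (Inv3), 6 of the 24 mice of the series were described by the level of a set of epithelial miRNAs in each gland. The 6 libraries were chosen by their stage, and they were ordered by an index selected on measured values, namely the mean log2(RPM + 1) of miR-200a-3p, miR-200b-3p, miR-141-3p and miR-429-3p, where RPM is a miRNA's reads scaled to 1000000 reads on all miRNAs in a library. Against this index stood the other miRNAs that reached a mean of 100 RPM across the 6 libraries, which were 136 of the 1009 miRNAs in the table. The index and the threshold rest on the same measurements as the miRNAs set against them, and everything within Inv3 is a description over 6 mice with no test.

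Each library holds small RNA of 1 female C57BL/6 mouse, from abdominal and inguinal mammary tissue homogenised whole. Besides the 6 Inv3 mice there were 6 adult mice at 10 weeks of age (W10), 6 mice at day 18 of gestation (P18) and 6 mice at day 7 of lactation (Lac7). The days are those of the sample labels, whereas the design text of the series has them swapped, with lactation at day 3 and involution at day 7. The labels name no transgene and no treatment.

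The miR-200 family is made from a pair of gene clusters and is known for holding cells in an epithelial state by repressing the transcription factors Zeb1 and Zeb2. In the mammary gland the secretory epithelium expands during pregnancy, fills the gland at lactation and is removed by cell death once milk is no longer drawn off, while fat cells, fibroblasts and immune cells come to occupy the space. A homogenate mixes the RNA of all these cells, so fewer cells of a type and less RNA per cell cannot be told apart in any value given here.

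The 4 index miRNAs come from 2 places in the genome. In RefSeq coordinates of GRCm38.p6, the mature miR-200b, miR-200a and miR-429 lie on the minus strand of chromosome 4 between 156053916 and 156055742, inside the protein-coding gene Ttll10, where GENCODE places all 3 hairpins in introns. Mature miR-141 and miR-200c lie on the minus strand of chromosome 6 between 124717917 and 124718346, in an intron of the annotated gene Gm15884. Their sequences are shown because the seed, bases 2 to 8 in capitals, splits the family differently from the genome, since each cluster holds both seeds. Sequences are those of RefSeq (GRCm38.p6), in which 119 of the 140 miRNAs were matched by name.
miR-200a-3p: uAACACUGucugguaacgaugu
miR-141-3p: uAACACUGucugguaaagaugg
miR-200b-3p: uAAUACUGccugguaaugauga
miR-429-3p: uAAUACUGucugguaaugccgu
miR-200c-3p: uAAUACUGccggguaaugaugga

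The index was 11.20 in mouse 1, 10.94 in mouse 2, 12.57 in mouse 3, 12.39 in mouse 4, 11.32 in mouse 5 and 12.65 in mouse 6 of Inv3. Mice 3, 4 and 6 thus stood apart from mice 1, 2 and 5, with an empty stretch of 1.07 log2 units between 11.32 and 12.39. The mean ± SD was 11.85 ± 0.77 at Inv3, against 10.46 ± 0.21 at W10, 12.25 ± 0.17 at P18 and 13.69 ± 0.08 at Lac7 (n = 6 each). Every Inv3 mouse lay above the highest W10 mouse (10.81) and below the lowest Lac7 mouse (13.58). Mice 1, 2 and 5 lay below the lowest P18 mouse (11.98), mouse 4 lay within the range of P18, and mice 3 and 6 lay above the highest P18 mouse (12.43). These values chose the order of the mice and are given with no test. Regression of the gland itself was not measured, so the index is called the miR-200 index below.

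**Figure D1:**
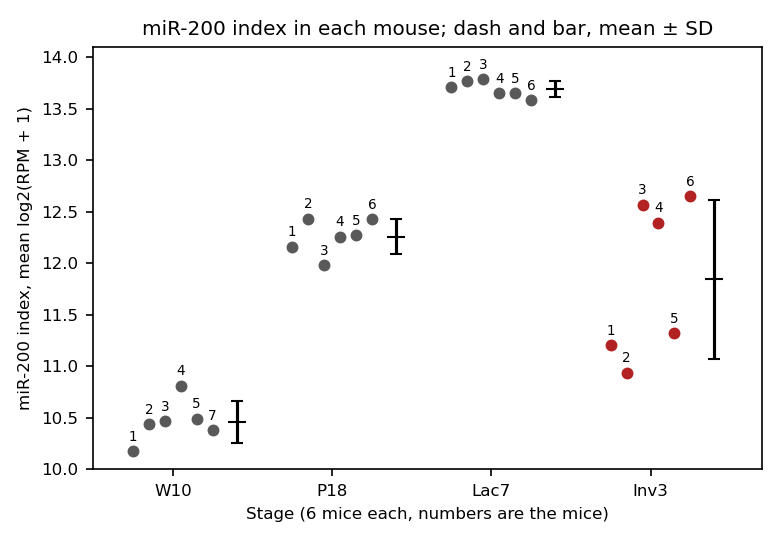
Each point is the miR-200 index of 1 mouse (mean log2(RPM + 1) of 4 miRNAs, vertical axis) at the 4 stages, numbered by mouse, and the dash and bar are the mean ± SD of 6 mice. The Inv3 mice run from 10.94 to 12.65 with none between 11.32 and 12.39, while the SD at the other stages is at most 0.21.

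The 4 miRNAs of the index moved together. miR-200a-3p, the most abundant of them, was at 16145 RPM in mouse 1, 12214 in mouse 2, 47570.2 in mouse 3, 40262 in mouse 4, 19126 in mouse 5 and 53996 in mouse 6. miR-200b-3p was at 6868 RPM in mouse 1, 6768 in mouse 2, 16315 in mouse 3, 12811 in mouse 4, 6822 in mouse 5 and 14874 in mouse 6. Both were highest in mice 3, 4 and 6, whose values did not overlap with those of the other 3 mice. From the lowest to the highest mouse, miR-200a-3p spanned 4.42-fold and miR-200b-3p 2.41-fold. miR-141-3p, transcribed from the other cluster, was at 581 RPM in mouse 1, 454 in mouse 2, 1661 in mouse 3, 1647 in mouse 4, 654 in mouse 5 and 1954 in mouse 6. miR-429-3p was at 476 RPM in mouse 1, 392 in mouse 2, 1058 in mouse 3, 981 in mouse 4, 497 in mouse 5 and 1091 in mouse 6. They spanned 4.31-fold and 2.78-fold, again with mice 3, 4 and 6 on top. Together the 4 took 2.41% of the miRNA reads in mouse 1, 1.98% in mouse 2, 6.66% in mouse 3, 5.57% in mouse 4, 2.71% in mouse 5 and 7.19% in mouse 6.

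Because the mice fell into separate sets of 3 along the index, no correlation coefficient is given for single miRNAs, and whether a miRNA follows the index continuously cannot be tested with these mice. As a counting rule, a miRNA was said to rise with the index where Pearson's r over the 6 mice was at least 0.8, and to fall where it was -0.8 or less. By this rule 31 of the 136 miRNAs rose (22.8%), 25 fell (18.4%) and 80 did neither. After leaving out mice 2 and 6, the farthest from the median index, 26 of the 31 and 23 of the 25 still met the limit over the remaining 4 mice. Of the 80 that did neither, 20 met a limit over those 4 mice. The slope is in log2 units of the miRNA per log2 unit of the index, with its standard error over 6 mice. Its median was 0.48 for the rising miRNAs (range 0.17 to 1.93), -0.51 for the falling ones (-0.88 to -0.27) and 0.02 over all 136. The values rest on RPM, whose total is fixed, so that reads gained by some miRNAs are lost by others. When the libraries were scaled by the median of ratios instead, 26 miRNAs rose and 33 fell. The rising share of the miRNAs counted thus went from 55.4% to 44.1%. On that scale 26 of the 31 and 24 of the 25 still met the limit, and no slope among the 31 and the 25 changed sign. With Spearman's rho at the same limits, 22 rose and 24 fell, among them 20 of the 31 and 18 of the 25. The 3 miRNAs just inside the abundance threshold were miR-500-3p at 105 RPM, miR-30a-3p and miR-130a-3p at 109 RPM each, and just outside it were miR-362-3p at 99.1, miR-324-5p at 95.7 and miR-140-5p at 93.1 RPM.

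Depth moved with the index. The libraries of mice 1, 2 and 5 held 1165321, 1110996 and 1049915 reads, and those of mice 3, 4 and 6 held 1012040, 976572 and 722068. With all libraries thinned to the reads of mouse 6, 29 miRNAs rose and 26 fell, among them 29 of the 31 and all 25 counted at full depth. A count of 0 in these libraries allows 2.57 to 4.15 RPM (3 reads), far below the threshold of 100 RPM, and covers counting error only.

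The share of reads held by each set differed between the mice. The rising and falling sets were chosen by their relation to the index, so the direction of their shares was fixed by that choice. The 31 rising miRNAs held 12.1% of the reads in mouse 1, 12.5% in mouse 2, 19.6% in mouse 3, 19.5% in mouse 4, 13.8% in mouse 5 and 20% in mouse 6. The 25 falling ones held 15.9%, 16.1%, 9.45%, 10.2%, 12.2% and 9.42% in the same order. Mouse 5 stood between the extremes for the falling set, although its index was close to that of mouse 1. The 80 miRNAs that did neither held 68.9%, 68.7%, 63.6%, 64.1%, 70.7% and 62.7% of the reads in the same order. Their share was thus lower in mice 3, 4 and 6 as well.

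The family members outside the index that passed 100 RPM rose with it. Of the 6 miR-200 relatives listed, all 6 are in the table, 3 passed 100 RPM and all 3 rose, also under the other scaling. miR-141-5p, the opposite arm of the miR-141 hairpin, was at 295 RPM in mouse 1, 279 in mouse 2, 1215 in mouse 3, 1233 in mouse 4, 482 in mouse 5 and 1181 in mouse 6, a slope of 1.31 ± 0.14. miR-200b-5p was at 90.1 RPM in mouse 1, 90.9 in mouse 2, 355 in mouse 3, 281 in mouse 4, 156 in mouse 5 and 265 in mouse 6, a slope of 1.05 ± 0.17. In both, mouse 5 lay between mice 1 and 2 on one side and mice 3, 4 and 6 on the other. miR-200c-3p, which shares its seed with miR-200b-3p and its cluster with miR-141, was at 2504 RPM in mouse 1, 3323 in mouse 2, 6855 in mouse 3, 4165 in mouse 4, 3231 in mouse 5 and 6336 in mouse 6, with a slope of 0.66 ± 0.17. Here mouse 4 lay closer to mouse 2 than to mice 3 and 6. The 3 relatives below the threshold were miR-200a-5p with a mean of 62.5 RPM, miR-200c-5p with 5.52 RPM and miR-429-5p, which was at 0 in mice 1, 2, 3 and 5, at 1.02 RPM in mouse 4 and at 1.38 RPM in mouse 6.

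The steepest slope among the 136 belonged to miR-375-3p, a miRNA known from secretory cells such as those of the pancreatic islet. It was at 39.5 RPM in mouse 1, 35.1 in mouse 2, 392 in mouse 3, 185 in mouse 4, 61.0 in mouse 5 and 306 in mouse 6. Its slope was 1.93 ± 0.18, so it spread more than the index itself. It was at 26.1 ± 25.8 RPM at W10, 32.1 ± 8.57 RPM at P18 and 964 ± 73.1 RPM at Lac7 (SD, n = 6 each). Mice 1 and 2 of Inv3 lay within the ranges of W10 (8.95 to 76.6 RPM) and P18 (17.1 to 42.5 RPM), and mouse 5 within that of W10. Mice 3, 4 and 6 lay above all W10 and P18 mice and below the lowest Lac7 mouse (844 RPM).

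Milk-abundant miRNAs followed. Of the 8 listed as abundant in milk, which include miR-375-3p, 7 passed 100 RPM, 4 rose and none fell, with a median slope of 0.40. Under the median-of-ratios scaling 3 rose and 1, miR-26a-5p, fell. miR-148a-3p, known for its abundance in milk, was at 3405 RPM in mouse 1, 2810.1 in mouse 2, 13758 in mouse 3, 13717 in mouse 4, 5579.5 in mouse 5 and 15195 in mouse 6, a slope of 1.40 ± 0.13. miR-146b-5p, the most abundant member of the list at Inv3, was at 5787 RPM in mouse 1, 7148 in mouse 2, 23927 in mouse 3, 24908 in mouse 4, 15062 in mouse 5 and 26279 in mouse 6, a slope of 1.13 ± 0.26. In mouse 5 miR-146b-5p stood between the other mice. miR-30a-5p was at 3597 RPM in mouse 1, 4775 in mouse 2, 7102 in mouse 3, 6744 in mouse 4, 6074 in mouse 5 and 6945 in mouse 6, just past the limit with a slope of 0.40 ± 0.15 and not past it under the other scaling. miR-30d-5p, miR-22-3p and miR-26a-5p had slopes of -0.08 ± 0.17, -0.05 ± 0.17 and -0.17 ± 0.09. The milk list summed to 20193 RPM in mouse 1, 25218 in mouse 2, 53207 in mouse 3, 53479 in mouse 4, 35129 in mouse 5 and 56184 in mouse 6.

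Pairs with the same seed did not always move together. miR-148a-3p and miR-152-3p share a seed, and both rose, miR-152-3p with a shallower slope of 0.48 ± 0.07 and values from 432.5 RPM in mouse 1 to 800.5 RPM in mouse 6. miR-146a-5p and miR-146b-5p share theirs as well, yet miR-146a-5p, which responds to inflammatory signalling, was at 23198 RPM in mouse 1, 16392 in mouse 2, 10578 in mouse 3, 14156 in mouse 4, 12458 in mouse 5 and 11230.2 in mouse 6. Its slope was -0.38 ± 0.19 and it met neither limit. Mouse 1 had the highest miR-146a-5p and the lowest miR-146b-5p. The mature sequences of these pairs are shown, with the seed in capitals, because the miR-146 pair is so alike that the assignment of reads between its members is uncertain.
miR-148a-3p: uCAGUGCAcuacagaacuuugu
miR-152-3p: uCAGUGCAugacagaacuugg
miR-146b-5p: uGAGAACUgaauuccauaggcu
miR-146a-5p: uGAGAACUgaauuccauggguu

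**Figure D2:**
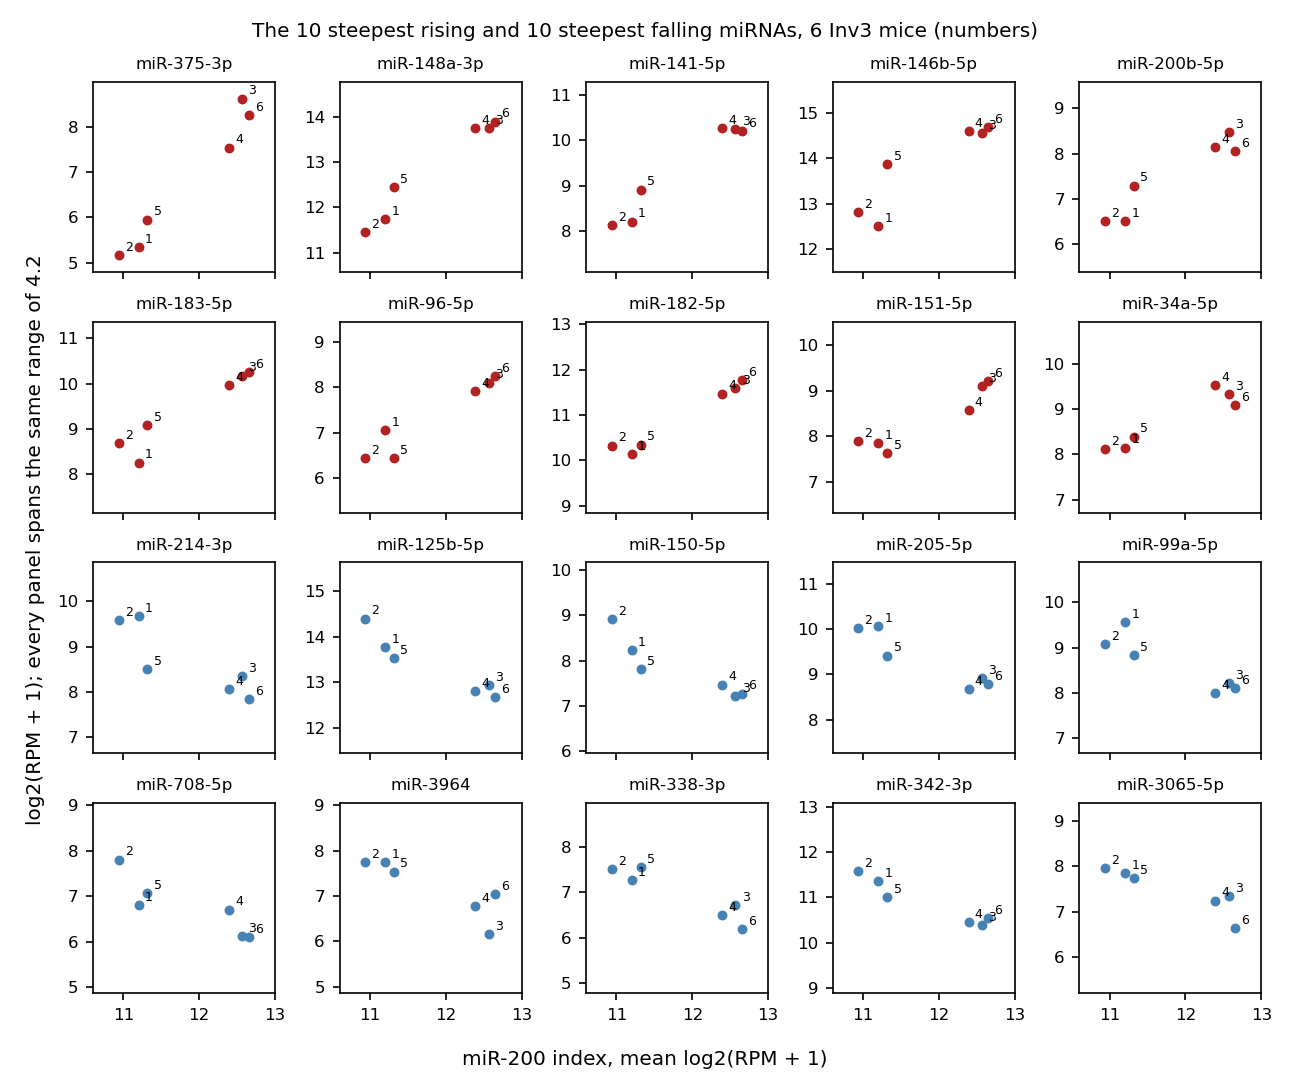
Each panel shows 1 of the 10 steepest rising or 10 steepest falling miRNAs, as log2(RPM + 1) (vertical axis) against the miR-200 index (horizontal axis), with 1 numbered point per Inv3 mouse, red for rising and blue for falling. Mice 3, 4 and 6 form the right-hand set in every panel because all panels share the same horizontal axis. The slopes run from 1.93 for miR-375-3p to -0.88 for miR-214-3p.

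The polycistronic cluster of miR-183, miR-96 and miR-182, on the minus strand of chromosome 6 between 30165962 and 30169732 and known from sensory organs, rose as a whole. miR-182-5p was at 1122 RPM in mouse 1, 1285 in mouse 2, 3101 in mouse 3, 2842 in mouse 4, 1305 in mouse 5 and 3498 in mouse 6, a slope of 0.94 ± 0.10. miR-183-5p was at 306 RPM in mouse 1, 411 in mouse 2, 1157 in mouse 3, 1008 in mouse 4, 544 in mouse 5 and 1227 in mouse 6, a slope of 1.04 ± 0.17. miR-96-5p was at 133 RPM in mouse 1, 86.4 in mouse 2, 275 in mouse 3, 241 in mouse 4, 85.7 in mouse 5 and 303 in mouse 6, a slope of 1.02 ± 0.15. All 3 separated mice 3, 4 and 6 from the rest, and all 3 were higher at Lac7 than at W10. Their sequences are shown because their seeds, in capitals, differ from each other and from those of the miR-200 family.
miR-182-5p: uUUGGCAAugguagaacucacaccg
miR-96-5p: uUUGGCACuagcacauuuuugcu
miR-183-5p: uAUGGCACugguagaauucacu

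Not all epithelial miRNAs rose. Of the 7 listed for epithelium outside the miR-200 family, all passed 100 RPM, 4 rose (miR-375-3p and the 3 of the cluster) and 1 fell, with a median slope of 0.94 and the same counts under the other scaling. The exception was miR-205-5p, made by basal and stem-like epithelial cells rather than by secretory ones, at 1074 RPM in mouse 1, 1042 in mouse 2, 482 in mouse 3, 407 in mouse 4, 683 in mouse 5 and 443 in mouse 6. Its slope was -0.75 ± 0.14. The values of mice 1 and 2 were above those of all 18 mice of the other stages, the highest of which was 691 RPM, a W10 mouse, while mice 3, 4 and 6 lay within the range of W10. miR-205-5p was at 437 ± 174 RPM at W10, 461 ± 84.0 at P18 and 155 ± 33.5 at Lac7, so every Inv3 mouse was above every Lac7 mouse (highest 208 RPM). miR-203-3p, a miRNA of keratinising epithelium and the most abundant of the list, had a slope of -0.11 ± 0.16, with all 6 Inv3 mice (2302 to 3678 RPM) below every mouse of the other stages (3944 to 8553 RPM). miR-31-5p had a slope of 0.38 ± 0.26. The summed level of this list was 6532 RPM in mouse 1, 6731 in mouse 2, 8843 in mouse 3, 7911 in mouse 4, 5143 in mouse 5 and 8799.7 in mouse 6.

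Other rising miRNAs belonged to no epithelial list. miR-34a-5p, which p53 induces, was at 283 RPM in mouse 1, 276 in mouse 2, 644 in mouse 3, 735 in mouse 4, 335 in mouse 5 and 540.1 in mouse 6, a slope of 0.76 ± 0.14. Mice 3, 4, 5 and 6 were above all 18 mice of the other stages, the highest of which had 285 RPM. Between Lac7 and W10 miR-34a-5p was not called (log2 difference 0.24 ± 0.17, limma adjusted p = 0.242). miR-151-5p was at 230 RPM in mouse 1, 238 in mouse 2, 547 in mouse 3, 383 in mouse 4, 197 in mouse 5 and 590 in mouse 6, a slope of 0.83 ± 0.15. Mouse 5 was the lowest for it, although its index was the third lowest. miR-340-5p, miR-3068-5p, miR-7a-5p and miR-28a-3p also rose, with slopes of 0.62 ± 0.21, 0.54 ± 0.07, 0.44 ± 0.12 and 0.21 ± 0.06. miR-27b-3p was at 24622 RPM in mouse 1, 20657 in mouse 2, 30478 in mouse 3, 30492 in mouse 4, 17959.5 in mouse 5 and 29024 in mouse 6, a slope of 0.35 ± 0.11, whereas miR-23b-3p of the same cluster had a slope of -0.41 ± 0.17. miR-181a-5p and miR-181b-5p, which share a seed, both rose.

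The let-7 family, a marker of differentiated cells, rose in part. Of the 9 listed, 8 passed 100 RPM, 4 rose and none fell, with a median slope of 0.21 and the same counts under the other scaling. let-7i-5p was at 2968 RPM in mouse 1, 2596 in mouse 2, 4847 in mouse 3, 4933 in mouse 4, 3638 in mouse 5 and 5642 in mouse 6, a slope of 0.56 ± 0.07. let-7f-5p, let-7a-5p and let-7g-5p rose with slopes of 0.24 ± 0.03, 0.23 ± 0.05 and 0.23 ± 0.03. let-7c-5p, the most abundant of the family, had a slope of 0.06 ± 0.09 and let-7b-5p one of -0.06 ± 0.13. The members share the seed and differ by few bases, so how the reads were split between them is uncertain. Of the 5 miR-30 miRNAs, all over 100 RPM, 3 rose (miR-30a-5p, miR-30b-5p and miR-30c-5p), and 2 did so under the other scaling. Summed, the miR-30 list was at 10256 RPM in mouse 1, 13697 in mouse 2, 15399.6 in mouse 3, 14758 in mouse 4, 14281 in mouse 5 and 15518 in mouse 6.

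Several falling miRNAs are known from fibroblasts and other mesenchymal cells. Of the 10 listed for fibroblasts and smooth muscle, 9 are in the table, 8 passed 100 RPM, 5 fell and none rose, with a median slope of -0.30 and the same counts under the other scaling. miR-214-3p, made from the Dnm3os transcript of fibroblasts, was at 816 RPM in mouse 1, 770.5 in mouse 2, 323 in mouse 3, 267 in mouse 4, 360 in mouse 5 and 227 in mouse 6, a slope of -0.88 ± 0.25. Mouse 5 was nearer to mice 3, 4 and 6 than to mice 1 and 2. miR-199a-3p, from the same transcript and from a further gene on chromosome 9, was at 61683 RPM in mouse 1, 58659 in mouse 2, 39668 in mouse 3, 45131 in mouse 4, 49049.7 in mouse 5 and 39372 in mouse 6, a slope of -0.33 ± 0.07. miR-199a-5p and miR-199b-5p had slopes of -0.39 ± 0.11 and -0.37 ± 0.07. miR-143-3p, a smooth muscle miRNA and the most abundant miRNA of all 6 libraries, was at 265178 RPM in mouse 1, 237485 in mouse 2, 231983 in mouse 3, 234466 in mouse 4, 295263 in mouse 5 and 212944 in mouse 6. Its slope was -0.14 ± 0.08 and it met neither limit, while all 6 mice were above every mouse of the other stages, the highest of which had 154585 RPM. miR-145a-5p, processed from the same transcript, had a slope of -0.08 ± 0.08. The summed level of the list was 335749 RPM in mouse 1, 303446 in mouse 2, 277264 in mouse 3, 285242 in mouse 4, 350724 in mouse 5 and 257585 in mouse 6, and no member was at 0 in all mice.

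Of the 8 mesenchymal-enriched miRNAs, 7 passed 100 RPM, 4 fell and 1, miR-152-3p, rose, with a median slope of -0.40 and the same counts under the other scaling. miR-125b-5p, the most abundant of them, was at 14035 RPM in mouse 1, 21609 in mouse 2, 7878 in mouse 3, 7172 in mouse 4, 11815 in mouse 5 and 6558 in mouse 6, a slope of -0.82 ± 0.13. It was highest in mouse 2, the mouse with the lowest index. miR-99a-5p, encoded next to let-7c on chromosome 16, was at 752 RPM in mouse 1, 538 in mouse 2, 295 in mouse 3, 255 in mouse 4, 455 in mouse 5 and 276 in mouse 6, a slope of -0.73 ± 0.17. miR-497a-5p and miR-195a-5p, neighbours on chromosome 11 that share a seed, fell with slopes of -0.56 ± 0.12 and -0.40 ± 0.09. miR-10a-5p and miR-10b-5p had slopes of 0.02 ± 0.07 and 0.12 ± 0.08. The summed level of the list was 28772 RPM in mouse 1, 37720.2 in mouse 2, 20733 in mouse 3, 20058 in mouse 4, 26654 in mouse 5 and 20073 in mouse 6. The Hox-cluster miRNAs miR-196a-5p and miR-196b-5p, outside the lists, also fell, miR-196a-5p at 2550.4 RPM in mouse 1, 2538 in mouse 2, 1774 in mouse 3, 1855 in mouse 4, 2394 in mouse 5 and 1659 in mouse 6, a slope of -0.36 ± 0.03 with the smallest standard error among the falling miRNAs.

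Lymphocyte miRNAs fell too. Of the 5 listed, 3 passed 100 RPM and all 3 fell under both scalings, with a median slope of -0.63. miR-150-5p, a marker of mature lymphocytes, was at 301 RPM in mouse 1, 482 in mouse 2, 147 in mouse 3, 176 in mouse 4, 224 in mouse 5 and 154 in mouse 6, a slope of -0.78 ± 0.17. miR-342-3p was at 2618 RPM in mouse 1, 3070.2 in mouse 2, 1337 in mouse 3, 1398 in mouse 4, 2061 in mouse 5 and 1487 in mouse 6, a slope of -0.63 ± 0.09. miR-155-5p, which is induced on activation of lymphocytes and macrophages, was at 149 RPM in mouse 1, 192 in mouse 2, 90.9 in mouse 3, 102 in mouse 4, 121 in mouse 5 and 115 in mouse 6, a slope of -0.43 ± 0.13. In each case mouse 2 was the highest, and mice 3, 4 and 6 were the lowest. The summed level of the list was 3109.9 RPM in mouse 1, 3798 in mouse 2, 1615 in mouse 3, 1717 in mouse 4, 2451 in mouse 5 and 1792 in mouse 6, and none of its members was at 0 in all mice.

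Of the 4 miRNAs of leukocytes and myeloid cells, 3 passed 100 RPM and none met a limit, although 2, miR-142a-3p and miR-142a-5p, fell under the other scaling. Their median slope was -0.37. miR-142a-5p, found across blood cells, was at 18119 RPM in mouse 1, 18590.5 in mouse 2, 9684 in mouse 3, 11345 in mouse 4, 12288 in mouse 5 and 13423 in mouse 6, a slope of -0.37 ± 0.16. miR-223-3p, of granulocytes and macrophages, was at 2033 RPM in mouse 1, 1815 in mouse 2, 1641 in mouse 3, 1705 in mouse 4, 2227 in mouse 5 and 1598 in mouse 6, a slope of -0.19 ± 0.08. The leukocyte list summed to 23591 RPM in mouse 1, 23133 in mouse 2, 12918 in mouse 3, 15117 in mouse 4, 16800.4 in mouse 5 and 17144 in mouse 6. miR-142b, catalogued on the strand opposite to miR-142a-3p with 20 shared bases, was at 51558 RPM in mouse 1, 43267 in mouse 2, 25945 in mouse 3, 29080.3 in mouse 4, 34957 in mouse 5 and 29456 in mouse 6 and fell with a slope of -0.43 ± 0.12. The authors name a stranded library kit, while the sources used here do not state how strand was used in counting. Reads of such opposite-strand neighbours are therefore reported as uncertain. The same holds for miR-338-3p and miR-3065-5p, which share 21 bases on chromosome 11 and fell with slopes of -0.69 ± 0.13 and -0.57 ± 0.14. It holds as well for miR-126a-3p and miR-126b-5p, which share 19, and for miR-24-3p and miR-3074-5p.

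The other steep falling miRNAs were miR-708-5p and miR-3964. miR-708-5p was at 111 RPM in mouse 1, 223 in mouse 2, 68.2 in mouse 3, 103 in mouse 4, 133 in mouse 5 and 67.9 in mouse 6, a slope of -0.73 ± 0.20. miR-3964 was at 213 RPM in mouse 1, 214 in mouse 2, 70.2 in mouse 3, 109 in mouse 4, 185 in mouse 5 and 130.2 in mouse 6, a slope of -0.72 ± 0.20. Both were highest in mouse 2, miR-708-5p was lowest in mouse 6 and miR-3964 in mouse 3. miR-224-5p, miR-365-3p, miR-125a-5p, miR-125b-2-3p, miR-145a-3p and miR-17-3p fell with slopes between -0.51 and -0.27.

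In the lists for skeletal muscle, red blood cells, and liver and gut, no miRNA over 100 RPM met a limit. Of the 7 skeletal muscle miRNAs, 1 passed 100 RPM and did not meet a limit, miR-133a-3p, at 251 RPM in mouse 1, 284 in mouse 2, 206 in mouse 3, 180.2 in mouse 4, 743 in mouse 5 and 195 in mouse 6, and miR-208b-3p of the list was at 0 in all 6. The summed muscle list was 297 RPM in mouse 1, 338 in mouse 2, 247 in mouse 3, 218 in mouse 4, 976 in mouse 5 and 264 in mouse 6, with mouse 5 far above the others. Of the 7 red blood cell miRNAs, 4 are in the table and 1 passed 100 RPM, miR-451a, with a slope of 0.33 ± 0.22. Below 100 RPM, and so not counted, miR-144-3p and miR-144-5p (means of 82.6 and 54.3 RPM) met the limit for rising. Their slopes were 0.33 ± 0.08 and 0.61 ± 0.11. miR-486a-5p (mean of 31.5 RPM) met neither limit, with a slope of -0.03 ± 0.28. The list summed to 910.5 RPM in mouse 1, 527 in mouse 2, 967 in mouse 3, 758 in mouse 4, 824 in mouse 5 and 1145 in mouse 6. Of the 3 liver and gut miRNAs, none met a limit, and they summed to 929 RPM in mouse 1, 2309.6 in mouse 2, 1535 in mouse 3, 1233 in mouse 4, 1059 in mouse 5 and 1716 in mouse 6. miR-122-5p, which is specific to liver, was listed at 0 in mouse 1 and at 626 RPM in mouse 2, 112 in mouse 3, 35.8 in mouse 4, 34.3 in mouse 5 and 195 in mouse 6. Without mice 2 and 5, the mice with the highest miR-122-5p and the highest muscle level, 38 miRNAs rose and 47 fell over the remaining 4 mice, among them 26 of the 31 and 22 of the 25, an alternative chosen after seeing the data. Leaving out mouse 5 alone gave 34 rising and 39 falling miRNAs, among them all 31 and all 25.

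Of the 7 adipose-linked miRNAs, 4 passed 100 RPM, 1 rose (miR-378a-3p, slope 0.17 ± 0.05, not under the other scaling) and 1 fell (miR-365-3p). miR-103-3p, the most abundant of them, had a slope of 0.13 ± 0.11. The list summed to 22299 RPM in mouse 1, 30150.4 in mouse 2, 29374 in mouse 3, 31298 in mouse 4, 24499 in mouse 5 and 28479 in mouse 6. The pair of endothelial miRNAs, miR-126a-3p and miR-126a-5p, both passed 100 RPM, and miR-126a-3p rose with a slope of 0.26 ± 0.06, which did not meet the limit under the other scaling. The pair summed to 12987 RPM in mouse 1, 12532 in mouse 2, 16725 in mouse 3, 17959 in mouse 4, 15656 in mouse 5 and 17703 in mouse 6. Neither list had a member at 0 in all mice. The part that the cell types of any list given here, fibroblasts and lymphocytes included, have in the slopes of other miRNAs was not tested.

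Of the 9 miRNAs listed for inflammation and injury, 8 are in the table, 4 passed 100 RPM and 1 rose, miR-34a-5p. miR-21a-5p, the most abundant of the list and known from tissue remodelling, was at 49305 RPM in mouse 1, 30619 in mouse 2, 26433 in mouse 3, 26941 in mouse 4, 29802 in mouse 5 and 23915 in mouse 6, a slope of -0.32 ± 0.18. It met neither limit, and mouse 1 stood far above the other 5, among which miR-21a-5p fell in the order of the index. miR-322-5p, the member over 100 RPM of the 4 listed for its cluster with miR-503, had a slope of -0.08 ± 0.10. Below 100 RPM, and so not counted, miR-503-5p (mean of 75.6 RPM) met the limit for rising, with a slope of 0.54 ± 0.09. miR-322-3p and miR-503-3p met neither limit, with slopes of -0.08 ± 0.26 and 0.54 ± 0.35. Of the 3 miR-29 miRNAs, which repress collagens, none met a limit (median slope 0.05). Of the 13 miRNAs of the cell cycle clusters, 9 passed 100 RPM and 1 fell, miR-17-3p, while under the other scaling 2 others, miR-92a-3p and miR-15b-5p, fell instead. Of the 18 miRNAs of the imprinted Dlk1-Dio3 cluster, 2 passed 100 RPM and neither met a limit, and miR-410-3p was at 0 in all 6. Of the 2 hypoxia-linked miRNAs none passed 100 RPM, and miR-210-3p stayed below the threshold of 100 RPM with a mean of 74.2 RPM, at 26.6 RPM in mouse 1, 22.5 in mouse 2, 137 in mouse 3, 117 in mouse 4, 38.1 in mouse 5 and 104 in mouse 6. These values again set mice 3, 4 and 6 apart.

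The 6 most abundant miRNAs were miR-143-3p, miR-16-5p, let-7c-5p, let-7a-5p, miR-199a-3p and miR-29a-3p. Among them let-7a-5p rose with the index and miR-199a-3p fell, and the others met neither limit. Of those not yet described, miR-16-5p was at 79632 RPM in mouse 1, 96055 in mouse 2, 83541 in mouse 3, 88766 in mouse 4, 107348 in mouse 5 and 93835 in mouse 6 and miR-29a-3p was at 35584 RPM in mouse 1, 34513 in mouse 2, 36926 in mouse 3, 35109.6 in mouse 4, 41244 in mouse 5 and 41882 in mouse 6. Their slopes were -0.05 ± 0.10 and 0.05 ± 0.07. let-7c-5p was at 75927 RPM in mouse 1, 96432 in mouse 2, 94519 in mouse 3, 86764 in mouse 4, 76908 in mouse 5 and 88418 in mouse 6. miR-16-5p, let-7b-5p and miR-10a-5p were the 3 most abundant miRNAs with an absolute r under 0.3. Over the 136 miRNAs, the median SD of log2(RPM + 1) between mice was 0.33 at Inv3, 0.29 at W10, 0.23 at P18 and 0.19 at Lac7. The stage with the largest SD was Inv3 for 60 of the 136 miRNAs, for 22 of the 31 rising ones and for 13 of the 25 falling ones. The rising and falling sets were chosen for following an index that spreads most at Inv3, so their counts are in part fixed by that choice.

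How lactating and adult glands differ was measured in the 18 mice of the other stages, which share no library with Inv3. In limma over these mice, 57 of 544 miRNAs were higher at Lac7 than at W10 (10.5%) and 214 were lower (39.3%), where a call took a p under 0.05 after Benjamini-Hochberg adjustment and a log2 difference of at least 1 either way. Of the 31 miRNAs that rose with the index, 16 were higher at Lac7 and none was lower. Of the 25 that fell, 24 were lower and none was higher, the exception being miR-145a-3p. Of the 80 that did neither, none was higher and 19 were lower. Thus all 16 of the 136 miRNAs that were higher at Lac7 were among the rising ones. With the median-of-ratios scaling, the median of the 544 log2 differences moved from -0.66 to -0.31 and the higher share of the calls from 21.0% to 37.5%. On that scale 22 of 26 rising miRNAs were higher and none was lower, 24 of 33 falling ones were lower and none was higher, and of the 77 others 13 were higher and 8 lower.

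Several miRNAs with steep slopes at Inv3 differed widely between Lac7 and W10. miR-375-3p was higher at Lac7 by 5.57 ± 0.36, miR-146b-5p by 4.43 ± 0.10 and miR-148a-3p by 4.33 ± 0.12 (log2 difference ± SE, limma adjusted p = 1.04e-11, 1.18e-19 and 6.96e-18). miR-150-5p differed by -4.75 ± 0.39, miR-3964 by -4.06 ± 0.32 and miR-99a-5p by -3.48 ± 0.26 (limma adjusted p = 6.91e-10, 2.28e-10 and 1.48e-10). In all 6 cases no Lac7 mouse overlapped with a W10 mouse, but they were named for their wide differences. The share of all miRNAs without overlap was not counted. It includes miRNAs that met neither limit, such as miR-23a-3p (at most 4426 RPM at Lac7, at least 12041 RPM at W10). Across the 136 miRNAs, which are not independent replicates, the slope at Inv3 and the difference between Lac7 and W10 had a Pearson's r of 0.89 and a Spearman's rho of 0.85, and 106 had the same sign. Without the 3 miR-200 relatives, r was 0.88 over 133 miRNAs, and with the median-of-ratios scaling it was 0.88 over 136. Among the rising miRNAs with little or opposite stage difference were miR-34a-5p, miR-30b-5p (log2 difference 0.00 ± 0.20, limma adjusted p = 0.987) and miR-378a-3p (-0.60 ± 0.16, limma adjusted p = 0.00293).

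**Figure D3:**
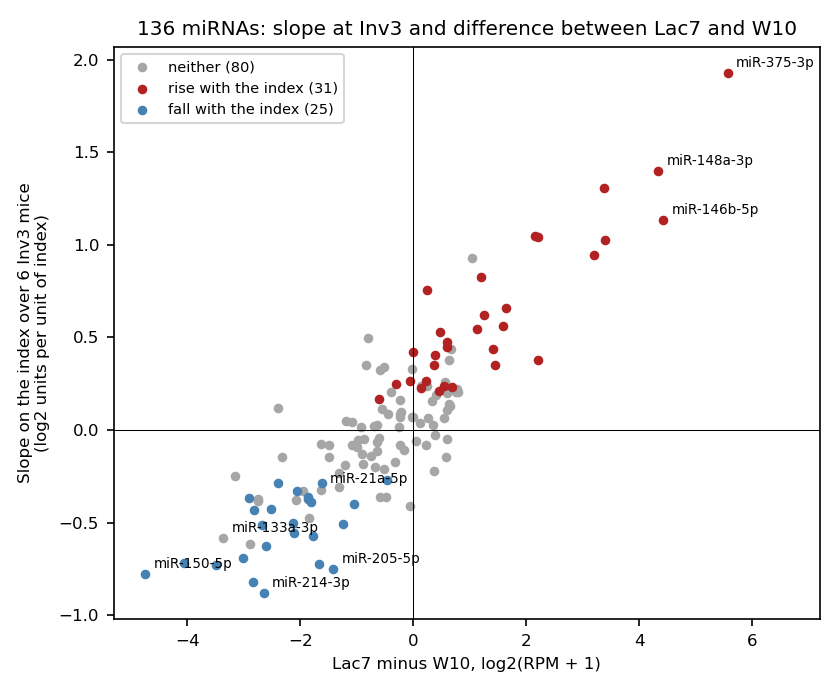
Each point is 1 of the 136 miRNAs, with its log2 difference between Lac7 and W10 (horizontal axis, 12 mice) and its slope on the miR-200 index over the 6 Inv3 mice (vertical axis), coloured by whether it rose, fell or did neither. Rising miRNAs lie mostly to the upper right, up to miR-375-3p at 5.57 and 1.93, and falling ones to the lower left, down to miR-150-5p at -4.75 and -0.78.

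The position of each Inv3 mouse between W10 (0%) and Lac7 (100%) was taken over the 89 miRNAs called between these stages that reached a mean of 100 RPM at W10 or Lac7, the miR-200 family left out. The median position was 20.6% in mouse 1, 27.9% in mouse 2, 59.7% in mouse 3, 56.9% in mouse 4, 39.2% in mouse 5 and 53.8% in mouse 6. Mice 3, 4 and 6 were thus nearest to lactation, and mouse 5 lay between them and mice 1 and 2. Over the 19 miRNAs higher at Lac7, the positions were 9.97%, -8.25%, 59.7%, 49.2%, 22.5% and 67.8%, and over the 70 lower ones they were 23.0%, 35.2%, 60.2%, 56.9%, 48.4% and 53.3%. In mouse 2 the median over the miRNAs higher at Lac7 thus lay below the adult mean. This did not hold for each of them, since miR-146b-5p in mouse 2 was above its W10 mean of 2358 RPM. The median over the miRNAs lower at Lac7 was farther from the adult mean in mouse 2 than in mouse 1. The P18 mice, for comparison, lay between 42.7% and 53.4%.

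Whether the same relation holds between mice of one stage was tested with limma in the 18 mice of W10, P18 and Lac7, with the index beside the stage. Of 540 miRNAs, 20 rose (3.7%) and 4 fell (0.741%) with the index at an adjusted p under 0.05. Of the 31 miRNAs that rose at Inv3, 3 rose in the other mice (miR-151-5p, miR-96-5p and miR-30c-5p) and 1, miR-183-5p, fell. Of the 25 that fell at Inv3, 2 fell (miR-196a-5p and miR-196b-5p) and 2, miR-497a-5p and miR-145a-3p, rose. Over all 136 miRNAs, 11 rose and 4 fell in these mice, among them 6 and 1 of the 80 that did neither at Inv3. The rising set was thus not set apart from the other miRNAs over 100 RPM by its count. miR-196a-5p had the smallest p of all 540, with a slope of -1.48 ± 0.26 (limma adjusted p = 0.00730), against -0.36 ± 0.03 at Inv3. miR-375-3p, miR-148a-3p and miR-146b-5p had slopes of 0.04 ± 1.02, -0.41 ± 0.33 and -0.26 ± 0.27 in the other mice (limma adjusted p = 0.981, 0.624 and 0.723), which do not show that they are unrelated to the index there. With the median-of-ratios scaling limma called none of the 540 (56 at an unadjusted p under 0.05, against 95 on RPM). On recovered reads, edgeR called 3 rising and 3 falling, and DESeq2 19 and 14. With the mouse number as a block limma called none as well (75 at an unadjusted p under 0.05), and leaving out each mouse in turn gave 0 to 31 rising and 0 to 5 falling miRNAs. The index spread little within these stages, with an SD of 0.08 to 0.21 against 0.77 at Inv3.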

How the data were processed

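Small RNA was sequenced from 24 mammary glands, 6 per stage and 1 library per mouse. The authors deposited RPM, reads scaled to 1000000 reads on the listed miRNAs, from reads trimmed with Trimmomatic 0.36 and cutadapt and assigned to miRBase miRNAs. Whole reads could be recovered for each library (660346 to 1165321 reads). W10 mice carry the numbers 1 to 5 and 7.

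Values were log2(RPM + 1). Within Inv3 the slope on the index and Pearson's r were computed over 6 mice, with limits of 0.8 and -0.8 and no test. The 18 other mice were fitted with limma 3.58.1 in R 4.3.3 (lmFit and eBayes with a trend, two-sided, Benjamini-Hochberg adjusted), with stage alone or with stage and index. The miRNAs tested were those whose mean reached 1 RPM in any of the 4 stages. Inv3 thus entered this filter, although no Inv3 library entered the fits. Median-of-ratios factors used 297 miRNAs. edgeR 4.0.16 and DESeq2 1.42.0 were run on recovered reads as alternatives, along with other pseudocounts, filters, limits, forms of the index, thinned reads and leaving out each library. The mouse number was tried as a replicate block, although the numbers do not pair mice: across miRNAs, deviations from the stage mean had a mean r of -0.05 in 33 pairs of mice with the same number and of 0.00 in 183 other pairs. The fits were tested on simulated data.

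Named miRNAs were the index miRNAs and their relatives, the 10 steepest rising and 10 steepest falling miRNAs, the 6 most abundant, the 3 most abundant with an absolute r under 0.3, and members of the lists. Others were named after their values were seen. The members and lists were chosen with earlier results of these data known, and many listed miRNAs are made by several cell types.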

Additional observations from a re-analysis of the deposited data

Results flagged for a closer look

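Of 113 groups of 6 Inv3 values, 6 had a mouse far from the others by Dixon's ratio of its gap to the whole range, where chance gives about 1 in 20 groups. The ratio was 0.6783 for miR-133a-3p and 0.7073 for the summed skeletal muscle list, with mouse 5 highest in both (742.9 RPM against 180.2 to 284.4, and 976 against 218 to 338). It was 0.6584 for miR-21a-5p (49305 RPM in mouse 1 against 23915 to 30619) and 0.6766 for miR-145a-5p (2187 RPM in mouse 1 against 1695 to 1841). For the summed miR-30 family it was 0.6986, with mouse 1 lowest (10255.5 RPM against 13697 to 15518). For miR-25-3p it was 0.6252, with mouse 6 highest (6501 RPM against 5381 to 5776). These values were not set against any explanation.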

How the results depend on the processing

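Within Inv3, against 31 rising and 25 falling miRNAs, a minimum mean of 10 RPM gave 52 and 40, one of 500 RPM gave 18 and 11, no filter gave 68 and 56, and a limit of 0.9 gave 18 and 13; the number of miRNAs counted or the limit itself changes these. With miR-200c-3p alone in place of the index 16 fell (21 rose), among them 11 of the 25 falling and 21 of the 31 rising miRNAs. Leaving out each mouse gave 27 to 39 rising and 26 to 39 falling, with 39 falling without mouse 5. Without mice 2 and 5, chosen after seeing the data, 47 fell (38 rose). The cause was not tested.

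In the 18 other mice, against 20 rising and 4 falling by limma, the replicate block gave 0 and 0 (75 at an unadjusted p under 0.05). Median-of-ratios scaling gave 0 and 0 (56). On recovered reads, edgeR gave 3 and 3 and DESeq2 19 and 14. A pseudocount of 10 gave 13 rising and no filter 10. Without W10 mice 5 rose and 0 fell (84 at an unadjusted p under 0.05), without P18 mice 0 and 0 (60), without Lac7 mice 1 and 1. Leaving out each mouse gave 0 to 31 rising and 0 to 5 falling. The rising count was 1, 11, 0 and 31 without W10 mice 1, 2, 4 and 7, then 10, 1, 3, 12, 8 and 0 without P18 mice 1 to 6, and 10, 9, 13, 12 and 6 without Lac7 mice 1, 3, 4, 5 and 6. The falling count was 0 without W10 mouse 1 or 4, 1, 2 and 1 without P18 mice 2, 3 and 6, and 2 without Lac7 mouse 6. The cause was not tested.

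Between Lac7 and W10, against 57 higher and 214 lower, a filter at 100 RPM gave 28 and 70, median-of-ratios scaling 95 higher, DESeq2 91 and 133, and a pseudocount of 10 gave 113 lower. The replicate block gave 59 and 213, and leaving out each library 55 to 61 and 210 to 220. The cause was not tested beyond the number of miRNAs left by the filter.

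The SD of the index at each stage and the positions of the mice moved by less than the spread between mice under the pseudocounts and the other scaling. Of 388 slopes of 20 named miRNAs under the alternatives, 360 stayed within the standard error, 28 moved further and 0 changed sign. With 6 mice in 2 separate sets and depth moving with the index, the slopes within Inv3 remain descriptive, and whole glands do not show which cells changed.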
